A study of Mus musculus with 18 samples.

Results

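The 8 genes followed here, Tcf7, Lef1, Bcl11b, Satb1, Tox, Zbtb7b, Bach2 and Id3, encode transcriptional regulators that establish or maintain the identity of T cells. DNA methylation at these genes was compared between Dnmt3a R878H/+ and WT mice in splenic CD4+ T cells, with splenic CD11b+ myeloid cells as the other lineage. A region was assigned to a gene if it overlapped the gene body extended by 5 kb on each side, with gene positions from GENCODE release 21 on the mouse genome mm10. By this rule, 487 of the 553467 regions listed for CD4+ cells and 374 of the 411770 regions listed for CD11b+ cells belonged to the 8 genes.

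TCF-1, encoded by Tcf7, and its relative LEF-1 are HMG-box factors that open the T cell program in thymic progenitors and keep naive and memory T cells in a stem-like state. BCL11B seals commitment to the T lineage, SATB1 folds chromatin at T cell genes, TOX acts in the development of CD4+ T cells, and ThPOK, encoded by Zbtb7b, directs thymocytes to the CD4+ lineage. BACH2 restrains effector differentiation and supports regulatory T cells, and ID3 holds E proteins in check. DNMT3A places methyl groups on CpGs that were previously unmethylated, and active enhancers of a cell type are usually low in CpG methylation.

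In whole-genome bisulfite sequencing (WGBS), unmethylated cytosines are converted and methylated ones are read as cytosine, which gives a methylation level per CpG. The sample labels hold 18 entries from spleen: 4 of Dnmt3a+/+ and 6 of Dnmt3aR878/+ CD11b+ cells, and 4 of each genotype of CD4+ cells. The 6 entries stand for 4 mice, since replicates 3 and 4 each occur as a pair of entries. The study wrote the mutant genotype as Dnmt3a R878H/+, and these mice carried 1 mutant allele switched on by a Vav1-iCre transgene, which drives Cre recombinase across hematopoietic cells. The study's methods pool, in other experiments, Cre+ Dnmt3a+/+ mice and Cre- mice with an unrecombined fl-R878H allele as controls. Which of these served as WT mice for WGBS was not stated. Mice were young adults of matched age and sex, as the methods state for experiments in general. The cells were purified on magnetic columns, and their purity was not given. The deposited tables hold 1 mean per genotype, cell type and region, and neither values of single mice nor the read depth of a region. Accordingly, none of the values below has an error between mice, no comparison could be tested across mice, and differences between genotypes are descriptions of group means. The tables do not name the genotypes, and the first mean was read as WT, which fixes every direction below. The titles of the entries also carry S numbers that fall into a lower and a higher series, whose meaning the labels do not give. All 4 entries of Dnmt3aR878/+ CD4+ cells and 1 of the 4 of Dnmt3a+/+ CD4+ cells fell in the higher series, so in CD4+ cells the series and the genotype cannot be told apart. In CD11b+ cells, 2 of the 6 Dnmt3aR878/+ entries, 1 each of replicates 3 and 4, and 0 of the 4 Dnmt3a+/+ entries fell in it.

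Cell type was checked on the WT means of regions listed for both cell types. For each gene, the median over these regions of the CD4+ mean minus the CD11b+ mean was taken. For Cd3e, Cd3d, Cd3g, Thy1, Cd14, S100a8 and S100a9, among others, it rested on 1 region. Over all regions listed for both cell types, the median difference was 1.19 points, and the CD4+ mean was the lower one in 38.4%. Less methylation in CD11b+ cells was thus the more common direction for any region. Of the 10 markers of CD4+ T cells, 4 had a negative median difference, that is, less methylation in CD4+ cells, and 6 had a positive one. The most negative were Cd5 with -25.1 percentage points and Cd247 with -11.4. Of the 9 markers of CD11b+ cells with such regions, 8 were less methylated in CD11b+ cells by this measure. Mpo led them with a difference of 16.5 points, and Itgam differed by -1.66 points. Among markers of other cells, 5 of 6 of B cells were less methylated in CD11b+ cells and both CD8+ T cell genes were less methylated in CD4+ cells.

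The sequences below show the regions on which the results turn, on the plus strand of mm10 from 5′ to 3′, with each CpG in capitals. They were read from the mm10 assembly by position, and where a region was longer than 300 bases its middle 300 are shown. The first 4 are the regions of Bach2, Bcl11b and Id3 with the largest loss of methylation among those with more than 10 CpG cytosines. The last 2, from Satb1 and Lef1, are the regions with the largest gain and were picked after their values were seen.
Bach2, largest loss in CD4+ cells, chr4:32352401-32352655: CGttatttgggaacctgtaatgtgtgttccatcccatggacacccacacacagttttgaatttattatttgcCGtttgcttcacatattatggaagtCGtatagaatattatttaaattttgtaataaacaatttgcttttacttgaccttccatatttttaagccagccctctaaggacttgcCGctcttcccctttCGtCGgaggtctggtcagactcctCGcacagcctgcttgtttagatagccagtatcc
Bach2, largest loss in CD11b+ cells, chr4:32351600-32351899: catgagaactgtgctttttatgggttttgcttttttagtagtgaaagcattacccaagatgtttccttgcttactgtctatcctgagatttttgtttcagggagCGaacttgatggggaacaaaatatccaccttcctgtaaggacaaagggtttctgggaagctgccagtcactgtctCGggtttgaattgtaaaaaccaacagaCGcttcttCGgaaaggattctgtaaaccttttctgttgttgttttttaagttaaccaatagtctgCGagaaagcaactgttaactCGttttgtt
Bcl11b, largest loss in CD4+ cells, chr12:107980955-107981254: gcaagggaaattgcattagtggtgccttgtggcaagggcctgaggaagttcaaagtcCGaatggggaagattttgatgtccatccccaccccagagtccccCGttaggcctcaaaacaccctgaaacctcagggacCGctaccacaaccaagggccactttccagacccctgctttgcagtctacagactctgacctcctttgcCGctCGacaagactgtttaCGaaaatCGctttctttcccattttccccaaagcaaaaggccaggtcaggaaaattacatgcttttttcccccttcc
Id3, largest loss in CD4+ cells, chr4:136145774-136146073: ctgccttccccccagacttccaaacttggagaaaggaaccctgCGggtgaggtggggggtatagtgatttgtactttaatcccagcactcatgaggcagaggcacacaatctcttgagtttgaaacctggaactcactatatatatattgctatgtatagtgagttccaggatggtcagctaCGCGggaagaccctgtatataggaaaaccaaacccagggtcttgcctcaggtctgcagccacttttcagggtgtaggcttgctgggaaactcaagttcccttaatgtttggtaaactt
Satb1, largest gain in CD4+ cells, chr17:51823558-51823857: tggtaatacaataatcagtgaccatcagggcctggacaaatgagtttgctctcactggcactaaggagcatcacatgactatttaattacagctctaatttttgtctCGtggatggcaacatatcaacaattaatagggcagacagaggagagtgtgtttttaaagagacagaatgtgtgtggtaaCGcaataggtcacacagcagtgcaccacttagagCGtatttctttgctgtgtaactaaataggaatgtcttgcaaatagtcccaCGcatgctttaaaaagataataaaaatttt
Lef1, largest gain in CD4+ cells, chr3:131167886-131168185: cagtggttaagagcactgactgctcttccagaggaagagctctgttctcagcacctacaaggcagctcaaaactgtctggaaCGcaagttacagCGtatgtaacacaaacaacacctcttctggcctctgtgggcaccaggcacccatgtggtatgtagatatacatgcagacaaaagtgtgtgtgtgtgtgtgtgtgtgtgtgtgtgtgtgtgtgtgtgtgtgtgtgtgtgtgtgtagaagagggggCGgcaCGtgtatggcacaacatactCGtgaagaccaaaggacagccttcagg
None of these windows overlapped an annotated exon. Short factor motifs were searched in them as letters only and on both strands, and their background was taken from the 216684 windows of 300 bases at the middle of CD4+ regions with more than 10 CpG cytosines. The TCF/LEF letters CTTTGA occurred once in the Bcl11b window and in 21.1% of the background windows. The RUNX letters TGTGGT occurred once each in the Bcl11b, Satb1 and Lef1 windows and in 22.2% of the background. The GATA letters AGATAA occurred once in the Satb1 window and in 17.0% of the background. The letters TGACTCA of AP-1 and BACH factors occurred in 0 of the windows shown and in 6.00% of the background. The E protein letters CAGCTG likewise occurred in 0 of them and in 14.3% of the background.

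In CD4+ cells, the 8 genes as a group were about as much less methylated in Dnmt3a R878H/+ mice as the rest of the listed genome, but with many more exceptions. The median level of their regions was 83.2% for WT mice and 74.7% for mutants, and the median loss was 7.00 percentage points (interquartile range over regions 2.53 to 12.8), beside 6.85 points over all listed regions. The Dnmt3a R878H/+ mean was higher than the WT mean in 90 of the 487 regions, or 18.5%, beside 4.53% of all listed regions. It was higher by over 10 points in 38 regions, or 7.80%, beside 0.182%. A total of 70 of the 90 regions, and 33 of the 38, lay in Lef1, Satb1 and Bcl11b, a grouping made after the values were seen. The other 5 genes had 20 of 318 regions with the higher mean in mutants, or 6.29%, and 5 higher by over 10 points, or 1.57%. By gene, the share with the higher mean was 37.5% of 8 regions in Zbtb7b, 12.5% of 16 in Tcf7, 6.91% of 188 in Bach2, 2.13% of 94 in Tox and 0 of 12 in Id3. At the other end, 24 regions with more than 10 CpG cytosines lost over 20 points, or 4.93% of the regions of the 8 genes beside 3.08% of all listed regions, and 18 of them were in Bach2. A differentially methylated region (DMR) was, by the criteria of the study, a region of over 10 CpGs whose means differed by over 20 points at a q-value below 0.05. Hypomethylated DMRs numbered 6, 5 in Bach2 and 1 in Bcl11b, or 1.23% of the regions beside 0.665% of all listed regions. The 8 genes had 0 hypermethylated DMRs, which made up 0.000542% of all listed regions (3 regions), so none of the gains described below passed the criteria.

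The same genes lost a median of 6.53 points (3.74 to 13.4) in CD11b+ cells, beside 6.55 points over all listed regions. The median levels were 88.3% for WT mice and 81.8% for mutants. The mutant mean was the higher one in 40 of 374 regions, or 10.7%, beside 6.56% of all listed regions, and it was higher by over 10 points in 14, or 3.74%, beside 0.61%. Losses over 20 points with more than 10 CpG cytosines numbered 16, or 4.28%, beside 3.24%. There were 2 hypomethylated DMRs, 1 in Bach2 and 1 in Id3, or 0.535% beside 0.576%, and 0 hypermethylated DMRs beside 0.0126% of all listed regions.

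**Figure D1:**
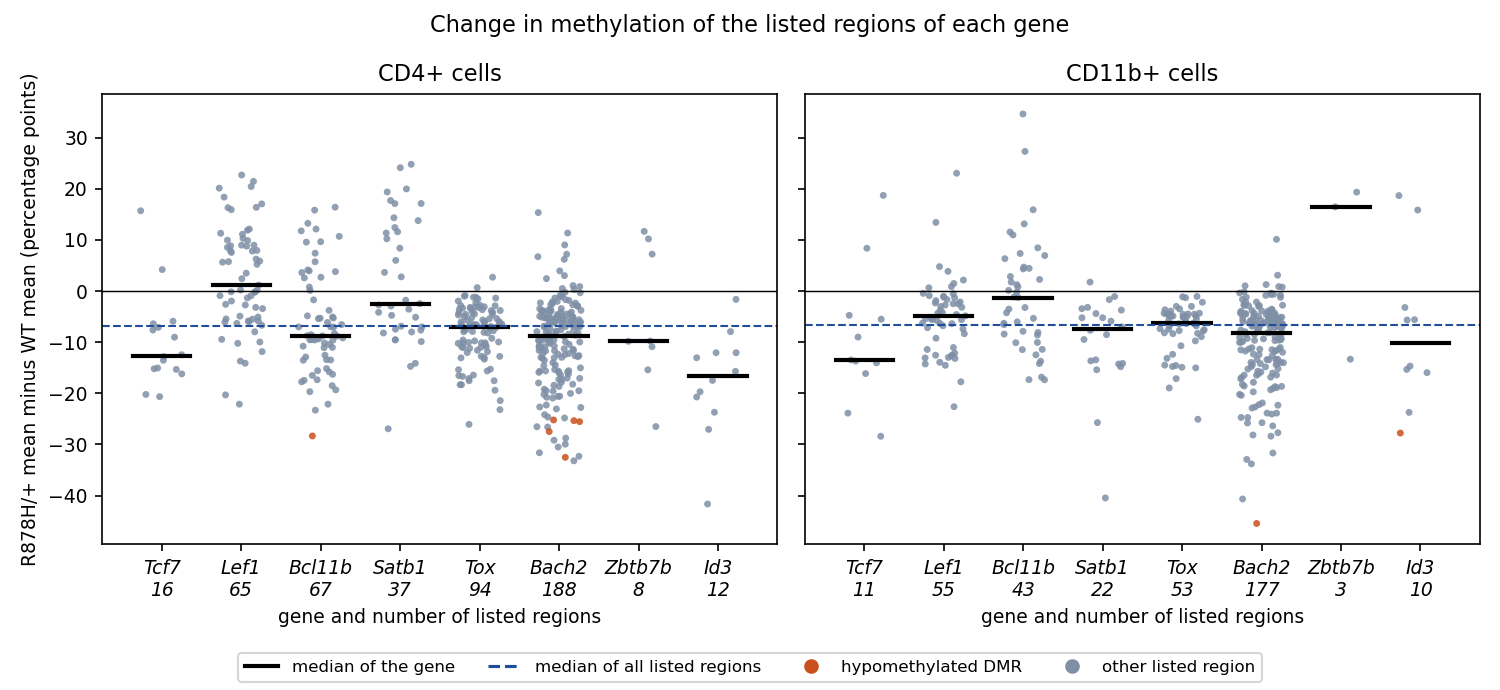
Change of every listed region of the 8 genes in CD4+ cells (left) and CD11b+ cells (right), as the Dnmt3a R878H/+ mean minus the WT mean in percentage points, with 1 point per region. Thick lines are the medians of the genes, the dashed line is the median of all listed regions, and in CD4+ cells the points above 0 gather in Lef1, Bcl11b and Satb1, whereas 5 of the 6 DMRs are in Bach2.

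Lef1 was the only one of the 8 genes whose median difference was a gain in CD4+ cells. Over its 65 listed regions (chr3:131110471-131224356, plus strand), the median level was 72.8% for WT mice and 78.3% for mutants, and the median loss was -1.18 points, that is, a gain. The mutant mean was higher in 35 regions and by over 10 points in 14. The gains were densest from 5 to 72 kb downstream of the 5′ end of the gene, where 29 of 39 regions were higher in mutants and the medians were 63.6% in WT and 72.2% in mutants. In the rest of the gene, from 72 to 120 kb, 6 of 24 regions were higher. These limits were drawn after the values were seen. The largest gain, 57.6 kb from the 5′ end in an intron (chr3:131167844-131168226, shown above), went from 42.0% to 64.7% with a q-value of 0.33. Close by, the Lef1 region with the largest loss among those with more than 10 CpG cytosines, chr3:131169238-131169842, went from 79.3% to 59.0%. Among the Lef1 regions with a WT mean between 30% and 60%, 16 of 17 were higher in mutants. The same stretch was highly methylated in CD11b+ cells, with a median of 89.4% in WT and 85.0% in mutants, and 4 of its 28 regions were higher in mutants.

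The gains of Satb1 (chr17:51736187-51833290, minus strand) were gathered near its 5′ end. Over all 37 CD4+ regions the median loss was 2.45 points, and 17 regions were higher in mutants. The median level nevertheless was 66.9% in WT and 68.8% in mutants. Weighted by CpG cytosines, the mean loss was -2.38 points, that is, a gain, beside -2.28 points for Lef1. Between 2 and 31 kb downstream of its 5′ end, limits again set after the values were seen, 12 of 13 regions were more methylated in Dnmt3a R878H/+ CD4+ cells, 11 of them by over 10 points. The medians there were 33.4% in WT and 51.1% in mutants. The region with the largest gain, 9.58 kb from the 5′ end (chr17:51823466-51823949), went from 30.3% to 55.1%, and chr17:51808755-51809186, which spans a further annotated start of the gene 24.3 kb downstream, went from 34.9% to 59.0%. The only region of the stretch that did not gain, 19.2 kb from the 5′ end, was nearly free of methylation in both genotypes, with 4.23% in WT and 1.5% in mutants. All 6 regions of the same stretch in CD11b+ cells were less methylated in mutants, from a median of 89.5% to 83.4%. Beyond 31 kb, 5 of 23 CD4+ regions were higher in mutants, and the median loss was 6.88 points. Its largest loss there was in an intron (chr17:51760412-51760631), from 47.1% to 20.2% with a q-value of 0.071. The largest loss of Satb1 in CD11b+ cells, at chr17:51790169-51790823, was from 78.3% to 37.8% with a q-value of 0.52.

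**Figure D2:**
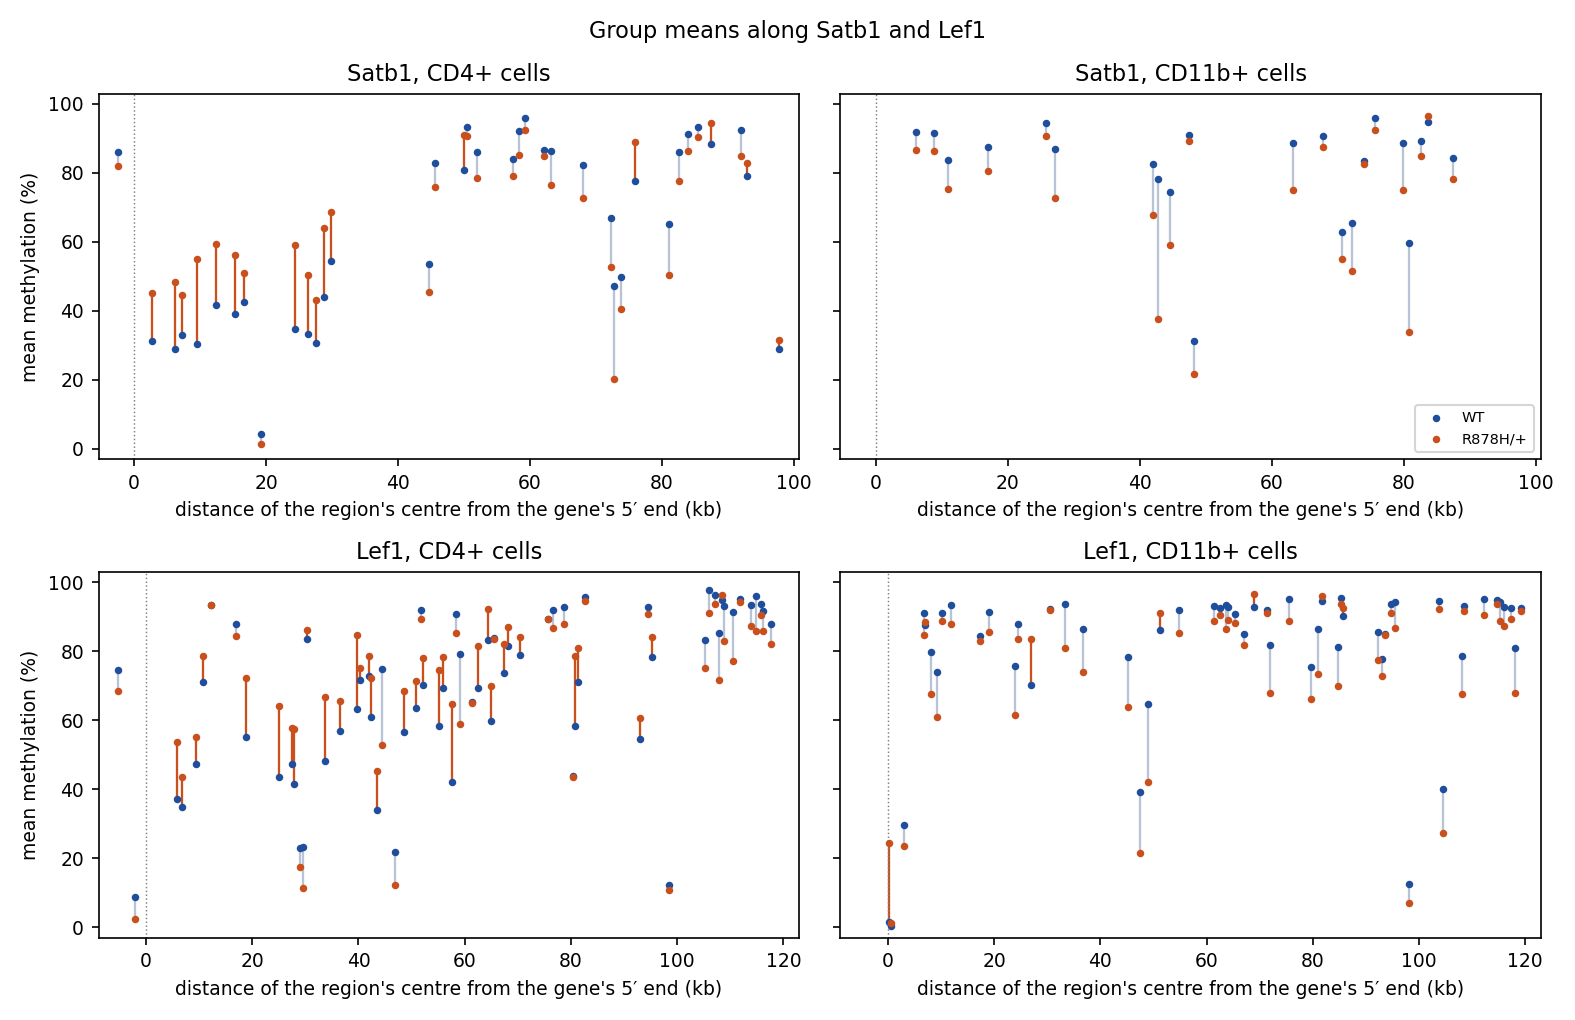
Mean methylation in percent of each listed region of Satb1 (top) and Lef1 (bottom) against the distance of its centre from the 5′ end of the gene in kb, in CD4+ cells (left) and CD11b+ cells (right). Each vertical line joins the WT mean to the Dnmt3a R878H/+ mean of 1 region and is orange where the mutant mean is higher, as in 12 of 13 Satb1 regions between 2 and 31 kb in CD4+ cells and 0 of 6 in CD11b+ cells.

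Bcl11b (chr12:107910403-108003602, minus strand) held both directions within 1 gene. In CD4+ cells its 67 regions had a median loss of 8.78 points, and 18 were higher in mutants. Its DMR lay in an intron 22.5 kb from the 5′ end (chr12:107980269-107981939, 39 CpG cytosines), where methylation was 45.0% in WT and 16.7% in mutants (q = 3.6e-05). By the centres of the regions, 7 of the 8 CD4+ regions from 20 to 28 kb, the DMR included, were lower in mutants, as were 4 of the 5 CD11b+ regions of that stretch. The exception in CD4+ cells was chr12:107975668-107976000, from 14.0% to 29.8%, and that in CD11b+ cells was chr12:107976175-107976605, from 3.33% to 30.6%. Nearer to the 5′ end, from 0 to 20 kb, 5 of 13 CD4+ regions and 3 of 7 CD11b+ regions were higher in mutants. In the distal part of the gene, from 72 to 86 kb, 5 of 8 regions were higher in mutant CD4+ cells and 3 were lower, and the medians were 38.8% and 46.8%. The largest gain there, at chr12:107921702-107921894, was from 21% to 37.4%. From 28 to 72 kb, 27 of 30 regions were lower in mutant CD4+ cells, whereas in CD11b+ cells 8 of 13 were higher. All of these stretches were drawn after the values were seen. Bcl11b also had the largest number of regions higher in mutants in CD11b+ cells, 19 of 43, and a median loss of 1.28 points.

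Bach2 (chr4:32238804-32586108, plus strand) carried most of the strong losses in both cell types. In CD4+ cells, its 188 regions had a median loss of 8.77 points, and 13 of them were higher in mutants. Of its 5 DMRs, the one with the largest loss lay in an intron 113.7 kb from the 5′ end (chr4:32352401-32352655, shown above) and went from 83.9% to 51.4% (q = 1.7e-05). The DMR at chr4:32405007-32406210 went from 71.4% to 43.9% over 40 CpG cytosines (q = 1.5e-10). The remaining DMRs were at chr4:32424060-32424371, from 79.2% to 54.0% (q = 9.9e-05), at chr4:32426718-32427318, from 83.9% to 58.5% (q = 0.0002), and at chr4:32501833-32502537, from 91.4% to 65.9% (q = 3.5e-05). The last of these lies 328 bp from an annotated internal start of Bach2, and the other 4 are intronic. In CD11b+ cells, 177 regions had a median loss of 8.15 points, 6 were higher in mutants, and the DMR at chr4:32351520-32351978 went from 71.1% to 25.6% (q = 2.9e-08). This CD11b+ DMR ends less than 1 kb upstream of the leading DMR of CD4+ cells. A CD4+ region within it (chr4:32351704-32351872) was already at 39.3% in WT CD4+ cells and was at 19.8% in mutants. Another CD4+ region, across its downstream edge (chr4:32351892-32352007, 10 CpG cytosines), went from 54.5% to 22.9%. Further upstream, chr4:32336194-32336739 went from 53.5% to 21.2% in CD4+ cells, and the CD11b+ region at chr4:32336195-32337050 went from 57.6% to 24.7%. Neither of the pair passed the q-value criterion. Of the 13 gains in CD4+ cells, 5 lay within 30 kb of the 5′ end, among them the largest at chr4:32242600-32243285, from 42.0% to 57.3%. The other 8 lay further into the gene, the largest of them at chr4:32386344-32386596, from 84.8% to 93.8%.

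**Figure D3:**
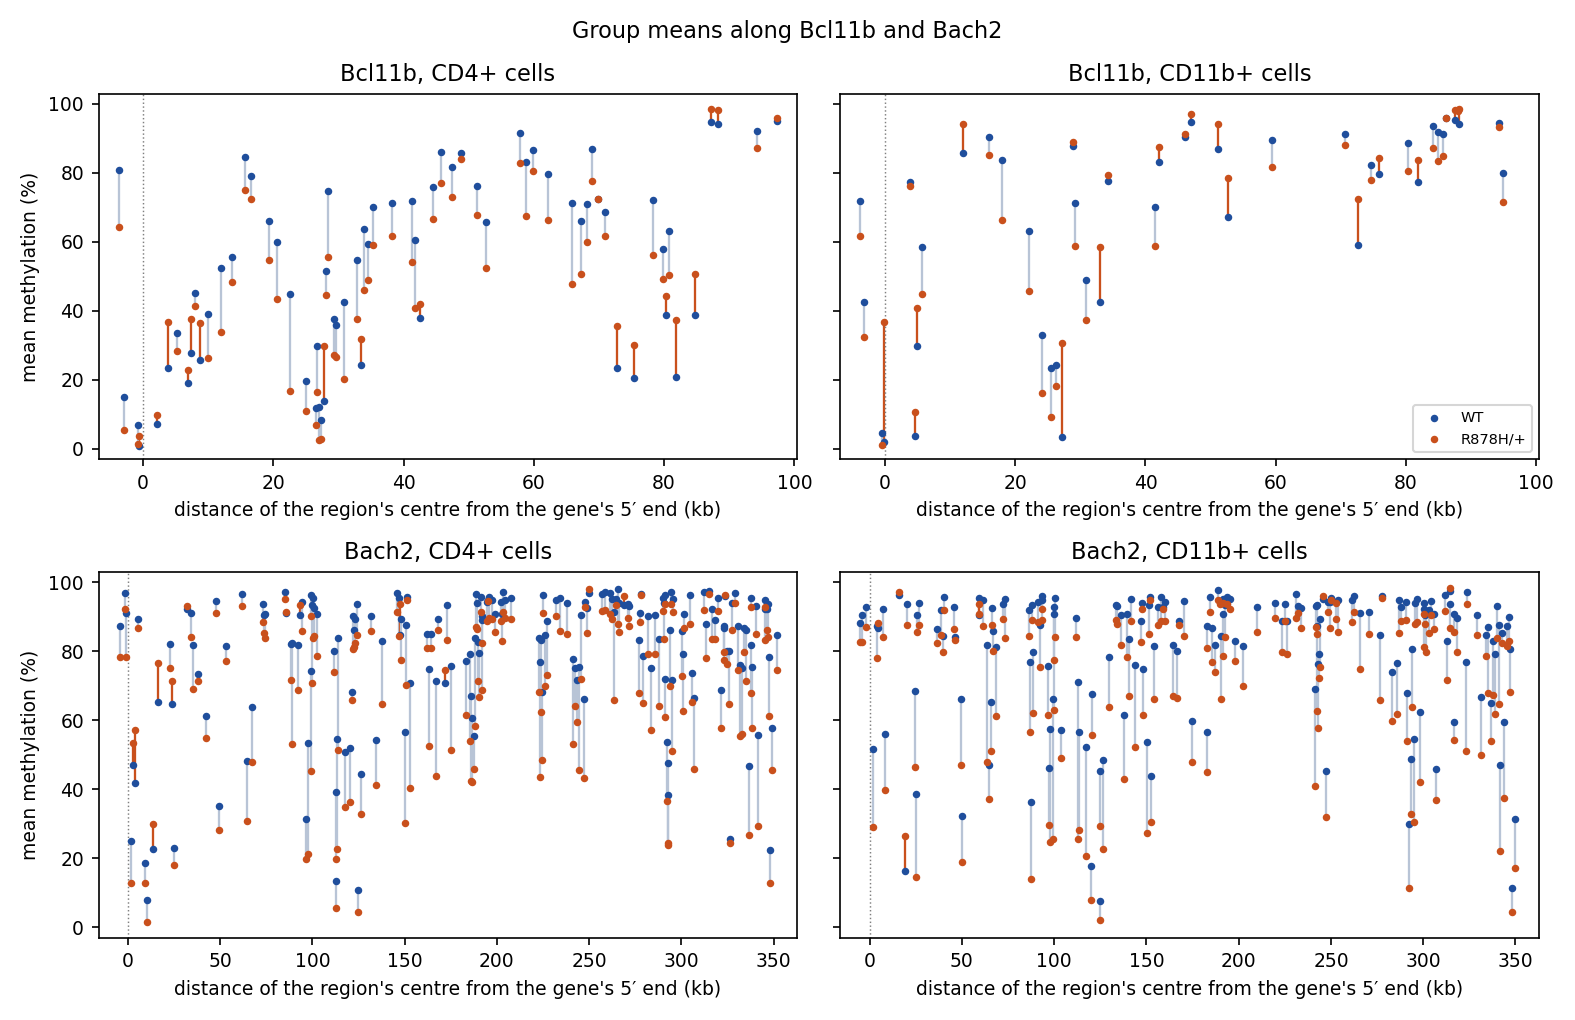
Mean methylation in percent of each listed region of Bcl11b (top) and Bach2 (bottom) against distance from the 5′ end of the gene in kb, in CD4+ cells (left) and CD11b+ cells (right), drawn as for Satb1 and Lef1. In Bach2 the mutant mean is lower in all but 13 of 188 CD4+ and 6 of 177 CD11b+ regions, and Bcl11b shows gains and losses along the gene in both cell types.

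Tcf7, Id3, Tox and Zbtb7b held 0 hypomethylated DMRs in CD4+ cells. Tcf7 (chr11:52252371-52283014, minus strand) lost a median of 12.6 points over 16 CD4+ regions and 13.5 points over 11 CD11b+ regions. Among regions with more than 10 CpG cytosines, its largest loss in CD4+ cells lay upstream of its start (chr11:52283967-52284134), from 19.8% to 6.29%, and that in CD11b+ cells at chr11:52255764-52256326, from 68.0% to 51.9%. An intronic region 9.19 kb downstream of the start (chr11:52273654-52273989) went the other way in CD4+ cells, from 24.2% to 39.9%. Id3 (chr4:136143497-136145755, plus strand) lost methylation in all 12 CD4+ regions, by a median of 16.6 points. The largest loss lay past the 3′ end of the gene, where chr4:136146711-136146968 went from 67.1% to 25.4% over 10 CpG cytosines, too few for the criteria, with a q-value of 0.13. Next came chr4:136148593-136149077, also past the 3′ end and over 10 CpG cytosines, from 67.9% to 40.8%. With more than 10 CpG cytosines, the largest loss was at a region across the 3′ end (chr4:136145599-136146248), from 79.4% to 55.7%. In CD11b+ cells, 1 DMR (chr4:136145190-136147519, 46 CpG cytosines) covered the first and the last of these and went from 61.3% to 33.6% (q = 0.0013), and chr4:136148593-136149077 went from 66.0% to 42.3%.

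Tox (chr4:6686353-6991557, minus strand) moved almost wholly in 1 direction. Its regions were highly methylated in WT, with medians of 93.2% in CD4+ and 92.8% in CD11b+ cells, the median losses were 7.02 and 6.25 points, and 92 of 94 CD4+ regions and all 53 CD11b+ regions were lower in mutants. Its largest CD4+ loss among regions with more than 10 CpG cytosines, at chr4:6940901-6941653, was from 74.8% to 53.3%. Zbtb7b (chr3:89377644-89394776, minus strand) had 8 CD4+ regions, of which chr3:89387932-89388827, 261 bp from an annotated start, went from 46.2% to 19.7%, and 3 were higher in mutants, by up to 11.7 points. Only 3 Zbtb7b regions were listed for CD11b+ cells, 2 of them higher in mutants.

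Of the 38 gains over 10 points in CD4+ cells, 24 were at regions with an intermediate WT level, between 30% and 60%. At this level, 33 of the 79 CD4+ regions of the 8 genes were higher in mutants, or 41.8%, beside 5.16% of all listed CD4+ regions of that level. Of these 33, 30 were in Lef1, Satb1 and Bcl11b. Among the 268 regions with a WT mean of 80% or more, 7.84% were higher, beside 4.25% of all listed regions. In CD11b+ cells the shares at 30% to 60% were 7.14% for the 8 genes, 3 of 42 regions, and 3.96% for all listed regions. Bcl11b departed from Lef1 and Satb1 here, since 3 of its 17 CD4+ regions at 30% to 60% were higher, and 11 of its 18 gains started from below 30%.

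**Figure D4:**
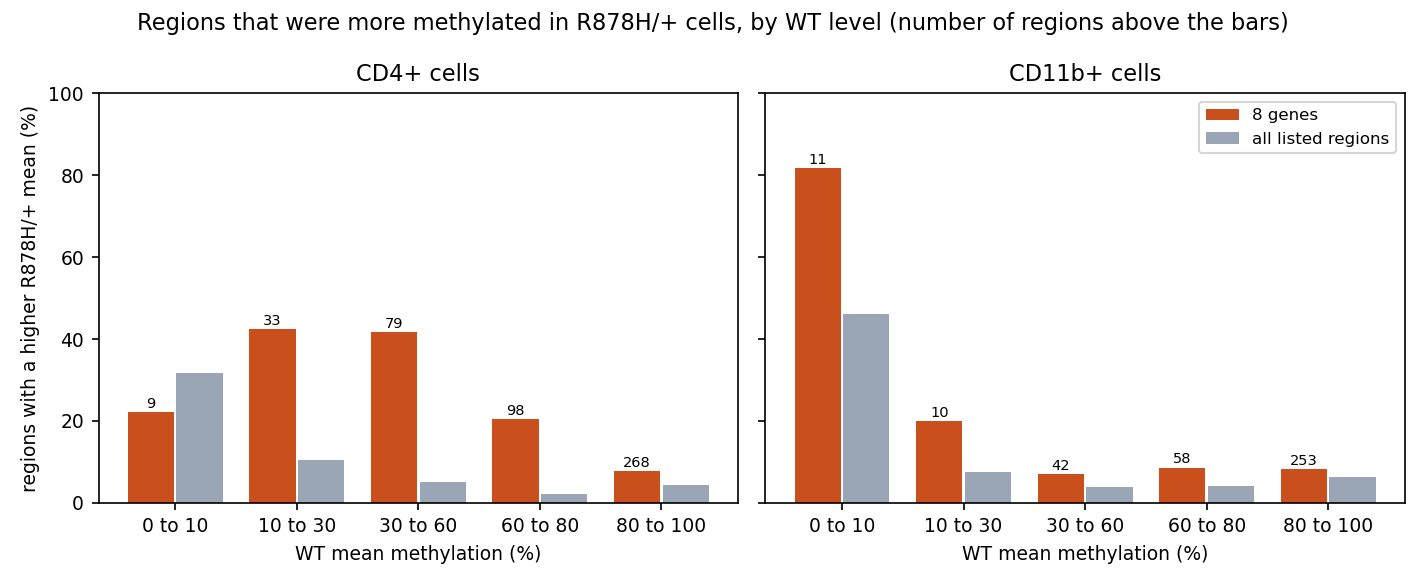
Share of listed regions, in percent, whose Dnmt3a R878H/+ mean is higher than the WT mean, by the WT mean of the region, for the 8 genes (orange, number of regions above the bar) and for all listed regions (grey), in CD4+ cells (left) and CD11b+ cells (right). In CD4+ cells the 8 genes stand furthest from all listed regions at a WT mean of 10% to 60%, and in CD11b+ cells at a WT mean under 10%.

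Regions listed for both cell types, with an overlap of at least 50% of the shorter one, allowed the lineages to be set side by side, and 174 such pairs fell in the 8 genes. In WT mice, the CD4+ mean was the lower one in 99 of them, or 56.9%, beside 38.4% of all 191048 pairs. It was lower by at least 30 points in 15 pairs, or 8.62%, beside 0.647% of all pairs. Of these 15, 7 were in Bcl11b, 4 in Bach2, 3 in Lef1 and 1 in Satb1. The widest was in Satb1 at chr17:51826864-51827601, with 29.0% in WT CD4+ and 91.9% in WT CD11b+ cells, which came to 48.3% and 86.6% in mutants. In Lef1 the widest pair (chr3:131117142-131117271) had 34.8% and 91.1% in WT, and 43.7% and 84.8% in mutants. In Bcl11b it had 21% and 77.5% in WT, and 37.4% and 83.8% in mutants (chr12:107921702-107921863). Of the 15 pairs, 10 were higher in mutant CD4+ cells and 3 were higher in mutant CD11b+ cells, beside 23.7% and 11.2% of the 1237 pairs of the whole tables with a WT difference of this size. The WT means enter both the choice of such pairs and their changes. Error in the WT means alone would therefore move chosen pairs toward gains in CD4+ cells and losses in CD11b+ cells. Without this choice, 2.88% of all pairs were higher in mutant CD4+ cells. In the 8 genes, 24 of 174 pairs were higher in mutant CD4+ cells and lower in mutant CD11b+ cells, or 13.8%, beside 2.13% of all pairs, and 10 of the 24 were among the 14 pairs of Lef1. The opposite kind of pair, with a WT mean at least 30 points lower in CD11b+ cells, numbered 2 of 174 in the 8 genes and 2651 of 191048 among all pairs. In this direction the 8 genes thus lay near the share of all pairs. The widest, in Bach2 at chr4:32358536-32359113, had 51.9% in CD4+ and 17.7% in CD11b+ cells, and both fell, to 36.2% and 7.88%. The median difference of the losses, CD4+ minus CD11b+, was 0.07 points over the 174 pairs, beside 0.29 points over all pairs.

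**Figure D5:**
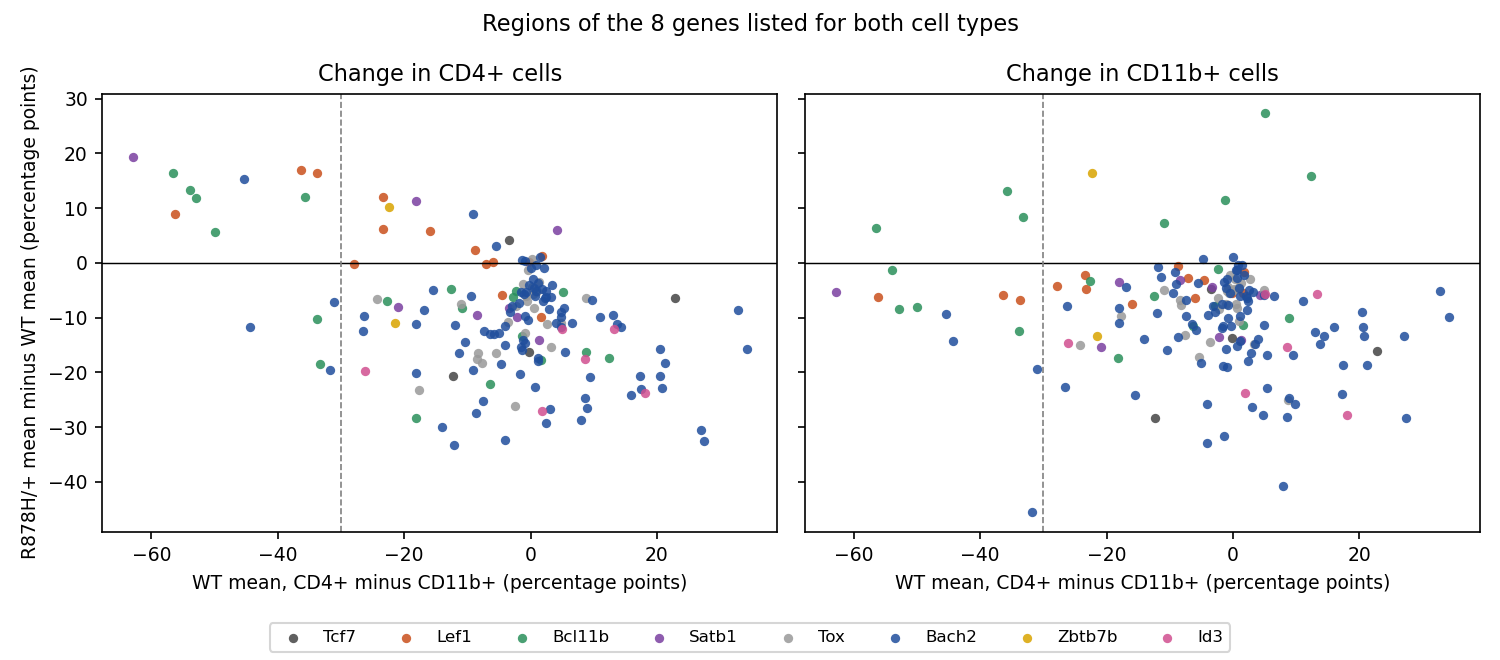
Change from WT to Dnmt3a R878H/+ in CD4+ cells (left) and CD11b+ cells (right), in percentage points, against the WT mean of CD4+ cells minus that of CD11b+ cells, for the 174 region pairs of the 8 genes, coloured by gene. Left of the dashed line, at a WT mean at least 30 points lower in CD4+ cells, 10 of 15 pairs are above 0 for CD4+ cells and 3 of 15 for CD11b+ cells. In each panel the WT mean of that cell type enters both axes.

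Of the 14 gains over 10 points in CD11b+ cells, 6 lay within 1 kb of an annotated start, 7 in introns and 1 in an exon. By WT mean, 7 of them started from under 10%, 2 from 10% to 30%, 3 from 30% to 60% and 2 from 60% to 80%. The intronic gains included 5 in Bcl11b, such as chr12:107970221-107970819 from 42.5% to 58.4% and chr12:107930803-107931167 from 59.2% to 72.3%, and the exonic one was in Zbtb7b, from 49.8% to 66.3%. The 6 at starts were almost unmethylated in WT cells. At Bcl11b, the region across the 5′ end (chr12:108003436-108003924) went from 2.10% to 36.7%. Its mean rests on 15 CpG cytosines, although the region holds 27 CpG dinucleotides, and that at the Tcf7 start on 13 cytosines in a region of 43 dinucleotides. Within 1 kb of an annotated start, methylation also went from 1.47% to 24.5% at Lef1, from 2.50% to 21.2% at Tcf7, from 1.53% to 20.9% at Zbtb7b, and from 0.417% to 19.1% and from 0.217% to 16.1% in 2 adjacent regions of Id3. Each of these had a q-value of 1. Of the 8 promoter regions of these genes with a WT mean under 10%, 6 gained over 10 points in CD11b+ cells, or 75%, but so did 26.1% of the 4982 such regions in the whole table, which hold 43 of its 52 hypermethylated DMRs. In CD4+ cells, 0 of 4 such regions of the 8 genes gained over 10 points, beside 0.659% of 3948. These 4 were not the counterparts of the gains. None of the 6 CD11b+ regions at starts was paired with a listed CD4+ region, so their level in CD4+ cells is unknown. The CD4+ region nearest to the Bcl11b start lay 557 bp from it, outside the CD11b+ region, and went from 1.00% to 3.70%. Without values of single mice, it cannot be said whether all mutant mice or 1 of them carried these gains.

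Other genes set the 8 in context. Over 20 other regulators of the T lineage, among them Gata3, Runx1, Ets1 and Foxp1, 55 of 1078 CD4+ regions were higher in mutants, 4 of them by over 10 points. The 55 were 5.10%, beside 4.53% of all listed regions, of which 0.182% were higher by over 10 points. Hypomethylated DMRs made up 27 of the 1078 regions, in 9 of the genes. This was a larger share than the 0.665% of all listed regions and the 1.23% of the 8 genes. Hypermethylated DMRs numbered 0. The median loss of these regions was 8.70 points, and 0 of the 20 genes had a median that was higher in mutants. In CD11b+ cells the same 20 genes had a median loss of 8.28 points, and 9.08% of 826 regions were higher in mutants, beside 6.56% of all listed regions. Hypomethylated DMRs made up 25 of the 826 regions, a larger share than the 0.576% of all listed regions. Over 8 myeloid transcription factors, the median losses were 12.3 points in CD4+ cells and 11.0 points in CD11b+ cells. Of 97 CD4+ regions, 1 was higher in mutants and 6 were hypomethylated DMRs, beside 4.53% and 0.665% of all listed regions. Of 88 CD11b+ regions, 12 were higher, 3 were hypomethylated DMRs and 2 were hypermethylated DMRs, beside 6.56%, 0.576% and 0.0126%. The markers of cell types moved as follows in CD4+ cells, and their part in the gains of Lef1 and Satb1 was not tested. Of the 10 markers of CD4+ T cells, 0 had a median that was higher in mutants, and the gene medians of the loss ranged from 6.96 to 13.5 points. They had 12 of 149 regions higher in mutants, or 8.05%, beside 4.53% of all listed regions. By over 10 points, 7 of the 149 were higher, beside 0.182% of all listed regions. Of these 7, 6 lay among the 58 regions of Cd247, the zeta chain of the T cell receptor complex. Large gains were thus not confined to Lef1, Satb1 and Bcl11b. The gene medians of the loss ranged from 7.20 to 15.3 points for 9 markers of CD11b+ cells and from 7.37 to 15.4 points for 6 markers of B cells. They were 8.39 and 8.48 points for the genes of CD8+ T cells, 3.65 and 6.53 for those of NK cells, and 6.70 and 8.98 for those of erythroid cells. A sorted CD4+ population holds naive, memory, effector and regulatory T cells, which differ in methylation at such genes, and a change in their shares and a change within each of them cannot be told apart here.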

How the data were processed

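WGBS covered 4 mice of each genotype for each cell type. The authors aligned the reads to mm10 using BISCUIT and found regions with metilene, a program that segments the genome by the difference between groups. The submitters' processing notes also name FastQC. Versions, metilene settings and a coverage minimum are not given in the sources used here. The group means deposited by the authors are in percent, and a deposited q-value was used only to apply the DMR criteria of the study. The deposited difference of means and 2 further p-values of metilene (Mann-Whitney and 2-dimensional Kolmogorov-Smirnov) were not used. Losses were recomputed as the WT mean minus the mutant mean.

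The study gives 1 overall sequencing coverage, but the tables have no header and no depth per region, and 0 columns hold values of single samples, so the coverage and precision of each mean are unknown. The first mean was read as WT because the study describes WT cells as the more methylated. Starts in the tables are counted from 0 and are given here counted from 1. Every region starts and ends on a CpG cytosine of either strand, and 92.4% (CD4+) and 86.3% (CD11b+) of regions have a CpG number above their count of CpG dinucleotides, so that number was read as cytosines of both strands. The smallest number listed was 10. Group means over 10 cytosines were whole multiples of 0.025 in 100% of regions in all 4 groups, as whole percentages of 4 mice would give, also for the 6 entries of mutant CD11b+ cells.

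Regions were classed as promoter (within 1 kb of an annotated start), exon, intron or intergenic. The 8 genes and all lists were chosen with earlier results of these data known. By the rule for naming, the text names all 8 genes, every DMR, and for each gene the regions with the largest loss, nearest to a start or with the widest WT difference between cell types, some only as counts; other named regions were picked after their values were seen. No test was run, since regions are not replicates. Interval overlaps, calls and pairs were tested on simulated data. Alternatives were other q-value, size, CpG and overlap limits, other windows, leaving out genes, and 3 chosen after seeing the data. Python 3.11.15, pandas 2.3.3, numpy 2.4.6, pysam 0.24.0, samtools 1.23.1 and matplotlib 3.10.9 were used.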

Additional observations from a re-analysis of the deposited data

How the results depend on the processing

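No paired analysis was possible because the tables hold group means alone, and for the same reason no replicate could be left out. In CD4+ cells, the 6 hypomethylated DMRs of the 8 genes became 24 without the q-value, 1 with a difference above 30 points, 3 with more than 20 CpG cytosines and 3 with more than 10 CpG dinucleotides. In CD11b+ cells, the 2 DMRs became 16 without the q-value, 1 above 30 points and 1 with more than 20 cytosines. The median loss of 7.00 points in CD4+ cells became 13.4 with more than 20 cytosines, 8.00 without Lef1, 6.06 without Bach2 and 8.11 as the mean of the 8 gene medians. That of 6.53 points in CD11b+ cells became 8.39 as a mean weighted by cytosines, 15.9 with more than 20 cytosines, 5.53 without Bach2 and 4.38 as the mean of the 8 gene medians. Without Bach2 and Tox, the share of regions that were lower in mutants went from 81.5% to 63.4% in CD4+ cells and from 89.3% to 76.4% in CD11b+ cells. The median difference of the losses between cell types, 0.07 points, was -0.046 with pairs sharing at least 1 bp, and that of the WT means, -1.0 points, was -3.41 without Bach2. The count by dinucleotides, the mean of gene medians and the setting without Bach2 and Tox were chosen after seeing the data. The other 45 recomputed values kept their direction and stayed within 1.5 times a count or the interval over regions of a median. The depth behind each region is unknown, so it is unknown how much of any single mean is counting error.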
